A study of Mus musculus with 6 samples.

Results

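Collagens, laminins and the proteins that join them into a basement membrane were examined in RNA-seq data from liver endothelial cells (ECs) of young and aged mice. The genes were chosen by symbol alone. These 63 members comprise every collagen chain gene and laminin chain gene in the deposited count table, plus Nid1, Nid2, Hspg2, Fn1, Sparc, Sparcl1, Agrn and Lox. Of the 24421 gene symbols in the table, 63 matched. Of these, 44 encode collagen chains, 11 encode laminin chains and 8 are the further genes. All mice were wild-type C57BL/6J, and the study's methods list only females of this strain. The young group had 3 samples from 10-week-old mice, and the aged group had 3 samples labelled as 127, 131 and 136 weeks old. The livers were dispersed with dispase and collagenases, cells positive for the endothelial surface protein CD31 and negative for the leukocyte protein CD45 were sorted (CD31+CD45-), and RNA from 50000 cells was sequenced. This gate takes ECs of sinusoids and of larger vessels together. The comparison of aged with young ECs addresses how the ECs of the liver differ with age.

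A basement membrane is a thin sheet of matrix under an endothelium. Collagen IV forms 1 network and laminins, trimers of an alpha, a beta and a gamma chain, form another, and nidogens and the heparan sulfate proteoglycan perlecan link them. The sinusoids of a healthy liver are lined by ECs with open fenestrae and lack a continuous basement membrane. The loss of fenestrae together with the deposition of basement membrane proteins is called capillarization, and it has been described in old and in fibrotic livers.

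The collagen IV genes lie in head-to-head pairs whose annotated starts are close together, so their shared start regions are shown before the values of the chains. Col4a1 (mm9 chr8:11198423-11312826, minus strand) and Col4a2 (chr8:11312805-11449287, plus strand) overlap at their annotated starts by 22 bases. Col4a4 and Col4a3 point away from each other, with 71 bases between their annotated starts. Both sequences are given on the plus strand of mm9, 5′ to 3′, and the capitals mark a GC box.
Col4a1 and Col4a2, chr8:11312805-11312826: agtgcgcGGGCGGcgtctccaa
Col4a4 and Col4a3, chr1:82583425-82583495: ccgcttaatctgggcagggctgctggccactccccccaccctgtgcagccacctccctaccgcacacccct

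The motifs searched on both strands were the GC box GGGCGG, the CCAAT box CCAAT and the TATA box TATAAA. The 22 bases of Col4a1 and Col4a2 lie after both annotated starts, within both genes. Beside them are set 32851 RefSeq promoters (GRCm38.p6) in the window of the same length before their start, which is not a like position. The 22 bases hold 1 GC box, as do 7.19% of these windows. The 22 bases hold no CCAAT box (2.94% of the windows) and no TATA box (0.603%). None of the 3 motifs is in the 71 bases of Col4a4 and Col4a3, where the GC box was found in 20.7% of promoters, the CCAAT box in 13.3% and the TATA box in 4.41%. The third pair, Col4a6 and Col4a5 on chromosome X, is separated by 1308 bases. With a kit that does not mark the strand, reads in the 22 shared bases cannot be assigned to Col4a1 or Col4a2, but these bases are 0.323% of the exon length of Col4a1 (6818 bases).

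The libraries held 23001556 to 31651817 counts, so that the detection floor of 3 counts stood at 0.0947 to 0.135 CPM (counts scaled to library size with TMM factors). No molecular identifiers were used, so this floor covers counting error only. The members took up 0.554% to 0.756% of all counts. Lars2 and Rn45s, symbols that collect ribosomal RNA reads, took 1.29% of the counts of young replicate 3 and 0.960% of those of the 127-week sample, against 4.68% to 5.53% elsewhere, so differences within these library clusters are used as a check. Among pan-endothelial markers, Pecam1 had 1444 CPM in young and 1459 CPM in aged ECs, and Cdh5 426 and 369 CPM, and both overlapped between the groups. The summed CPM of the 7 endothelial markers was lower in every aged sample (13094 to 13713 in young, 9228 to 12020 in aged ECs), as were Kdr, Tek and Eng among them, and none of the 7 was at 0 in either group. Where a value below is lower or higher in a group, fewer or more cells of a type and less or more RNA per cell cannot be told apart.

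Of the 63 genes, 28 had a mean of at least 1 FPKM (fragments scaled for exon length and library size) over the 6 samples, and 17 had at least 10 FPKM. FPKM is per length and is the only scale on which levels are compared between genes here. Sparc, a secreted matricellular protein that binds collagens, stood first. Its FPKM was 788, 756 and 585 in young replicates 1 to 3 and 363, 497 and 522 in the 127-, 131- and 136-week samples. This gene alone supplied between 35.3% and 47.4% of the summed FPKM of the members in each sample. In mean FPKM it ranked 86th among all genes in young ECs and 155th in aged ECs.

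The collagen IV chains Col4a1 and Col4a2, which assemble together into the common collagen IV trimer, came next. Col4a1 had 206 ± 8.99 FPKM (SD, n = 3) in young and 171 ± 59.4 FPKM (SD, n = 3) in aged ECs. Col4a2 had 107 ± 7.05 FPKM in young and 97.5 ± 33.4 FPKM in aged ECs. The SD of both chains was larger in the aged group, where the 136-week sample was higher than every young sample and the other 2 aged samples were lower than every young sample.

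The order continued with Nid1 (mean of all samples 84.1 FPKM), Lamb2 (67.3), Hspg2 (49.9), Col13a1 (48.2), Lama4 (42.3), Sparcl1 (25.6) and Lamc1 (22.6 FPKM). These 10 genes supplied 81.4% to 92.8% of the members' summed FPKM. Neighbours in the order from Nid1 to Lama4 had overlapping FPKM ranges over the 6 samples, so their order is not fixed by these data. The laminin chains present at over 10 FPKM were thus alpha4, beta2 and gamma1, with alpha5 at 6.70 FPKM and beta1 at 7.52 FPKM. At the other end, 9 genes did not reach the level needed for testing (at least 0.5 CPM in at least 1 sample). Col2a1, Col24a1 and Col9a1 had no count in any sample, and Col11a1, Col9a2, Col19a1, Col22a1, Col10a1 and Col26a1 had at most 9 counts in a sample. Several of these, including Col2a1, Col9a1 and Col10a1, encode collagens of cartilage.

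**Figure D1:**
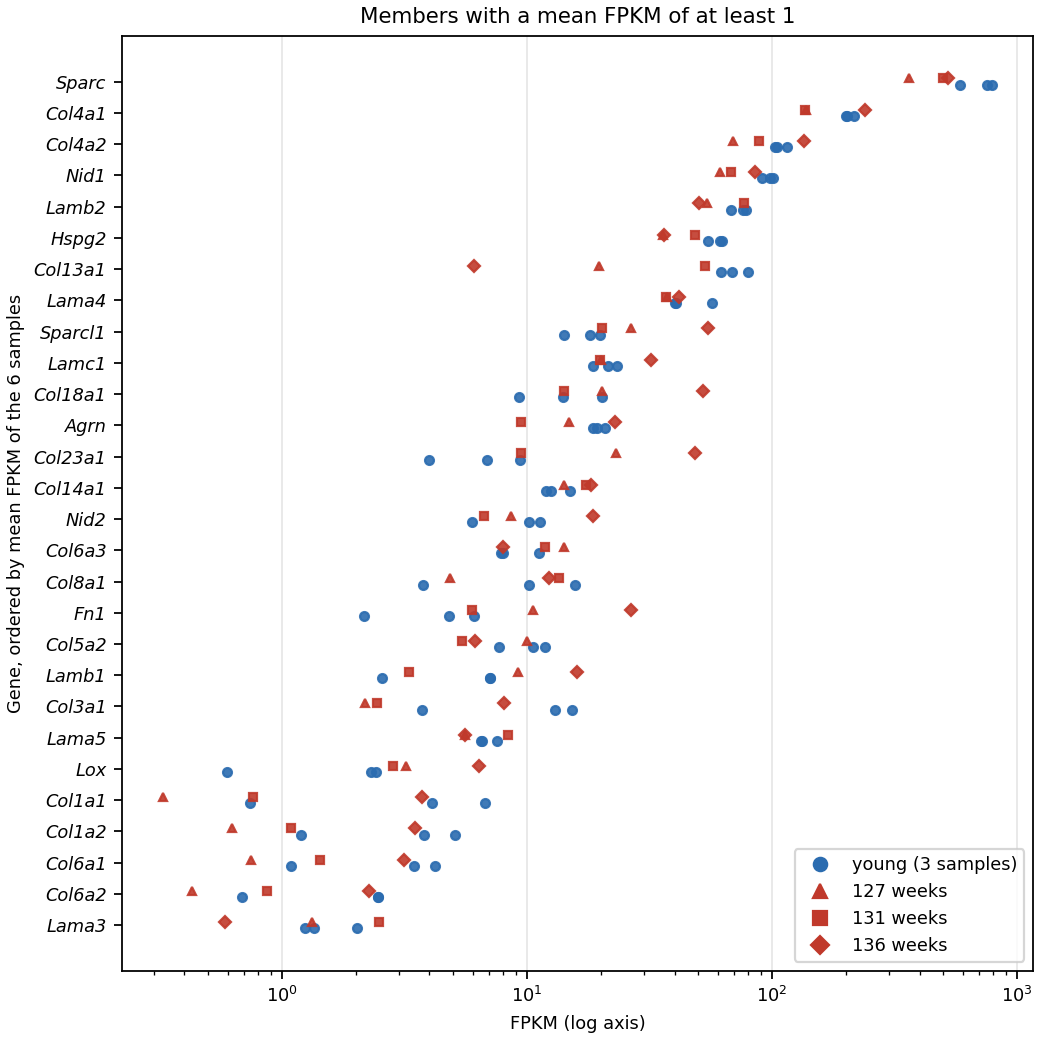
FPKM of the 28 genes with a mean of at least 1 FPKM on a log axis, with 1 point per sample (blue circles, 3 young samples; red triangle, square and diamond, the 127-, 131- and 136-week samples). Sparc leads at 363 to 788 FPKM, and the 136-week sample stands apart from the other aged samples for Col13a1 on the low side (6.09 FPKM) and for Col23a1 and Col18a1 on the high side (48.4 and 52.2 FPKM).

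In aged against young ECs, no member passed edgeR's quasi-likelihood test at a Benjamini-Hochberg adjusted p below 0.05 with a log2 fold change beyond 1. The same was true of all 14612 genes tested (0% in either direction, smallest adjusted p 0.0735). Of the 63 members 54 were tested. At an unadjusted p below 0.05, 7 members were higher in aged ECs and 3 were lower, against a background of 8.32% and 4.32% of all genes tested. The 7 were 13% of the members tested, and the 3 were 5.56%. Lamb3, among the 7, reached the level needed for testing only in the 136-week sample, so the filter itself favored a higher aged value.

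Judged by sample values, 8 members had all 3 aged samples above all 3 young samples (background 9.62% of all genes), and 5 had all aged samples below all young samples (background 8.33%). The first group included Lamc3, Col11a2, Col16a1, Col23a1, Col28a1, Sparcl1 and Lox, and the second was Nid1, Hspg2, Col13a1, Col17a1 and Sparc. Col28a1 reached the level needed for testing only in the 136-week sample, so its place in the first group is no support for a difference. The FPKM values gave the same division for all 54 members tested, and the direction of the mean FPKM matched that of the edgeR fit for 52 of them. DESeq2, an alternative test that gave 52 members an adjusted p, called 4 of them higher in aged ECs (background 3.37%) and none lower (background 1.05%) at an adjusted p below 0.05. All 4 also had a log2 fold change beyond 1 (background 2.77% higher and 0.540% lower). They included Col23a1, Lamc3 and Fn1, with DESeq2 adjusted p = 0.0108, 0.0394 and 0.0428.

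The fitted log2 fold change was above 0 for 29 members and below 0 for 25, and the split over all genes was 51.1% and 48.9%. The median over the members was 0.14 on the log2 scale, and over all genes 0.0098. The median differed in sign between abundant and scarce members, a difference that was not tested. The 17 members with at least 10 FPKM had a median of -0.13, and the 37 tested members with less had a median of 0.23. The summed FPKM of all members was 1549 ± 155 (SD, n = 3) in young and 1209 ± 252 (SD, n = 3) in aged ECs, and the 136-week sample (1477 FPKM) lay within the young range of 1372 to 1664 FPKM. Of the 54 members 24 had their highest value in the 136-week sample (25.7% of all genes), and young replicate 3 was the lowest for 23 (22.9% of all genes).

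**Figure D2:**
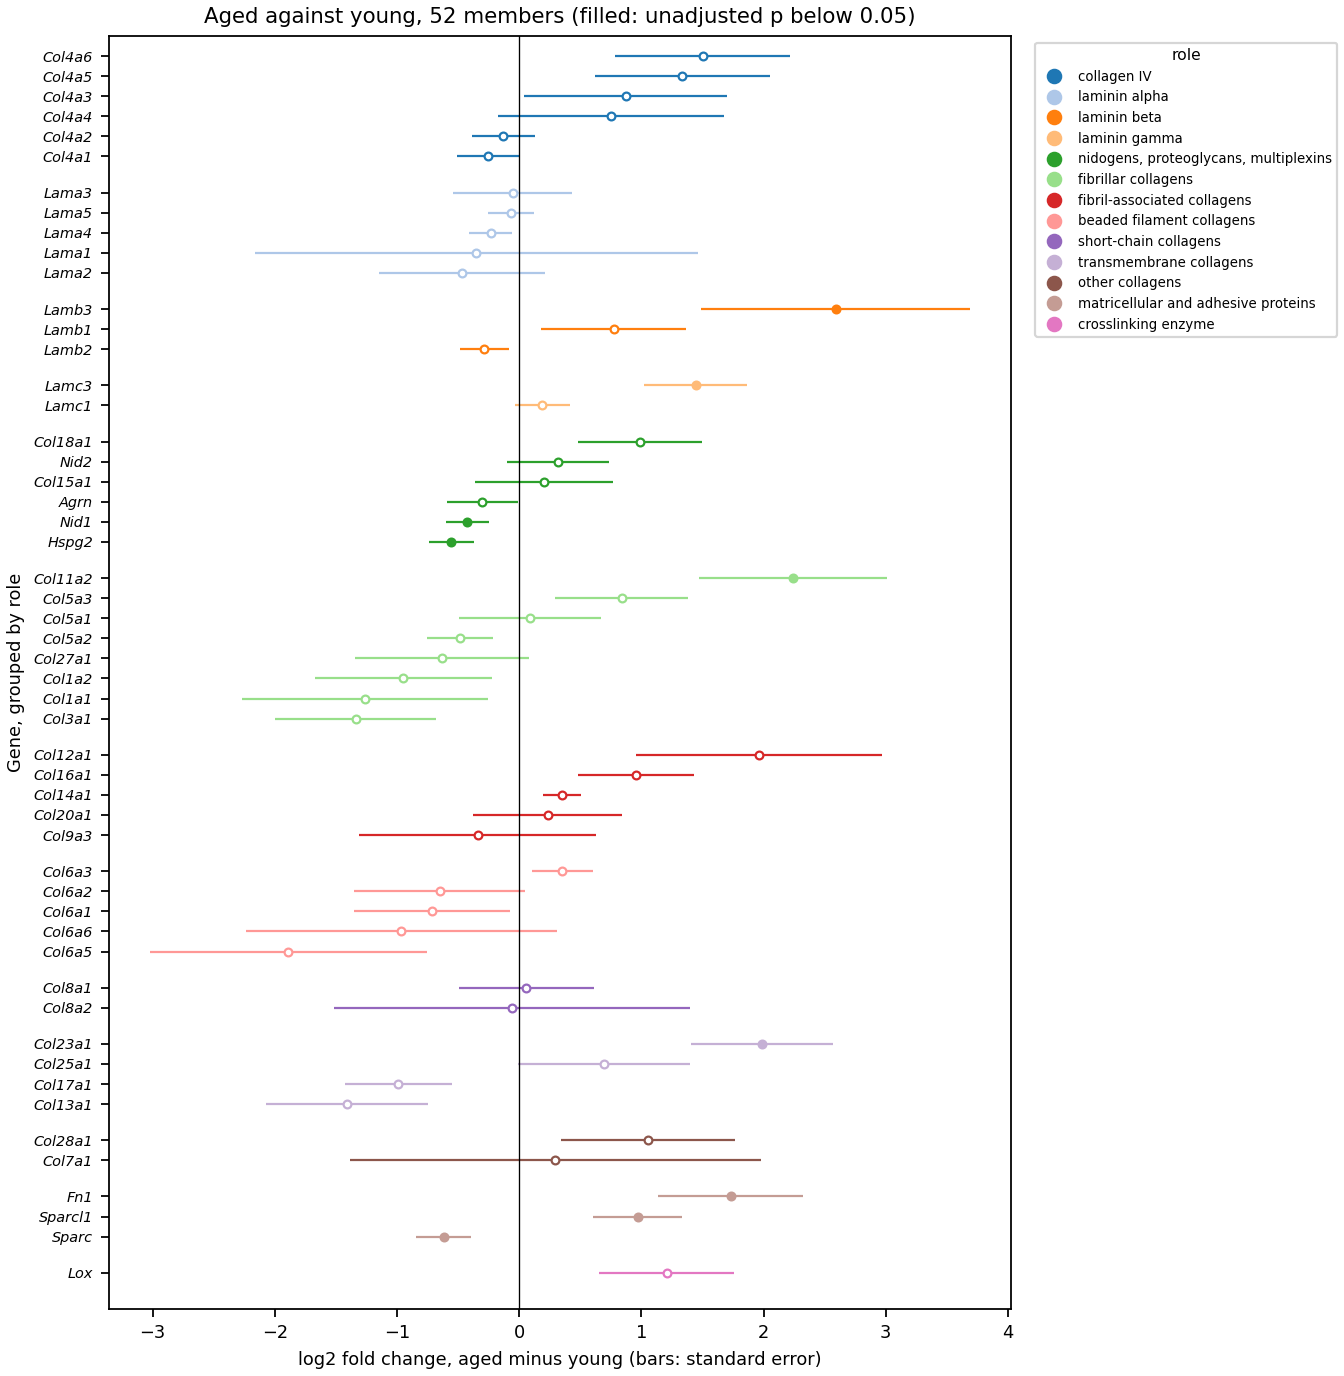
Fitted log2 fold change of 52 members, aged minus young, with bars for the standard error of the edgeR fit, ordered within each role, and filled points for an unadjusted p below 0.05. Col6a4 is left out because all young samples had 0 counts; the filled points to the right of 0 belong to Lamb3, Col11a2, Col23a1, Fn1, Lamc3 and Sparcl1, and the 3 to the left to Sparc, Hspg2 and Nid1.

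Perlecan and nidogen 1, the main linkers of the collagen IV and laminin networks, were lower in every aged sample than in every young one. Hspg2, which encodes perlecan (mm9 chr4:137024634-137126545), had 897, 918 and 794 CPM in young replicates 1 to 3 and 525, 715 and 534 CPM in the 127-, 131- and 136-week samples. The groups did not overlap, and the 131-week sample lay nearest to the young. Hspg2 was 1.47-fold lower in aged ECs (log2 fold change -0.56 ± 0.18 SE, 95% interval -0.99 to -0.13, edgeR adjusted p = 0.319). Nid1 (chr13:13529869-13604542) had 593, 614 and 541 CPM in young and 370, 413 and 519 CPM in aged ECs. Here the 136-week sample was the closest to the young group. The Nid1 difference was 1.34-fold (log2 -0.43 ± 0.18 SE, edgeR adjusted p = 0.385). An exact permutation test of either gene gave p = 0.1 (two-sided), the smallest that 3 samples against 3 allow. Groups that do not overlap always give this value, so the test adds no further support.

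Nidogen 2, a paralog of nidogen 1, and the remaining proteoglycans and multiplexins (collagens with cleavable ends that sit in basement membranes) overlapped between the groups. Nid2 had 49.6, 54.9 and 28.3 CPM in young and 41.4, 32.7 and 91.3 CPM in aged ECs, with the 136-week sample highest. Agrn, the heparan sulfate proteoglycan agrin, had 143, 156 and 138 CPM in young and 112, 71.4 and 171 CPM in aged ECs. Both genes had their highest value at 136 weeks, while the other aged samples lay inside the young range for Nid2 and below it for Agrn. Of the exon bases of Nid2, 7.9% are shared with an antisense gene. Col18a1, whose C-terminal fragment is endostatin, had 70.9, 102 and 46.2 CPM in young and 101, 71.5 and 264 CPM in aged ECs. Its log2 fold change of 0.99 ± 0.51 (SE, edgeR adjusted p = 0.479) was 0.24 without the 136-week sample. Col15a1, the other multiplexin, stayed below 5 CPM in every sample (4.32, 1.40 and 1.45 CPM in young, 1.65, 3.03 and 3.57 CPM in aged ECs).

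The chains of the common collagen IV network did not separate by age. Col4a1 had 1439, 1338 and 1303 CPM in young and 906, 912 and 1602 CPM in aged ECs. Col4a2 had 746, 662 and 659 CPM in young and 445, 574 and 871 CPM in aged ECs. For both chains the 127- and 131-week samples were below and the 136-week sample above all young samples, so the groups overlapped. The log2 fold change was -0.25 ± 0.26 (SE) for Col4a1, with a 95% interval from -0.86 to 0.35, and -0.13 ± 0.26 (SE) for Col4a2, with an interval from -0.73 to 0.47 (edgeR adjusted p = 0.747 and 0.894). The ratio of Col4a1 to Col4a2 in FPKM stayed between 1.54 and 1.98 in the 6 samples.

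The other 4 collagen IV chains, which form the networks of specialized membranes such as that of the kidney glomerulus, had means under 1 FPKM. Col4a3 had 4.69, 3.61 and 6.63 CPM in young and 5.81, 20.3 and 1.26 CPM in aged ECs. Its partner Col4a4 had 3.35, 1.49 and 3.38 CPM in young and 2.55, 10.8 and 0.528 CPM in aged ECs. In both the 131-week sample was the highest and the 136-week sample the lowest. The ratio of Col4a3 to Col4a4 ranged from 1.30 to 2.28. Col4a5 had 1.45, 3.75 and 0.600 CPM in young and 4.57, 2.33 and 7.64 CPM in aged ECs. Col4a6 had 0.223, 0.271 and 0.883 CPM in young and 0.825, 1.25 and 1.91 CPM in aged ECs. The groups overlapped for each of the 4 chains, and all 4 fitted log2 fold changes were above 0 (0.75 to 1.50). These pairs, and the FPKM ratios given here, were chosen for description after their values had been seen.

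Among the laminin alpha chains, which carry the binding sites for cell-surface receptors, all 5 fitted differences were below 0 and none had an unadjusted p below 0.05. Lama4, the alpha chain typical of endothelium, had 244, 247 and 339 CPM in young and 227, 226 and 255 CPM in aged ECs. Lama5, the other endothelial alpha chain, had 76.0, 76.5 and 87.5 CPM in young and 66.0, 97.4 and 65.7 CPM in aged ECs. Both overlapped between the groups, with log2 fold changes of -0.23 ± 0.18 and -0.07 ± 0.19 (SE). The ratio of Lama4 to Lama5 in FPKM was 6.63 ± 0.790 (SD, n = 3) in young and 6.19 ± 1.57 (SD, n = 3) in aged ECs. Lama1, Lama2 and Lama3 ranged from 0 to 26.6 CPM.

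Of the beta chains, Lamb2 was the most abundant by FPKM. It had 427, 442 and 378 CPM in young and 305, 433 and 285 CPM in aged ECs, with the 131-week sample inside the young range. Lamb1, the beta chain of the first laminin described, had 41.2, 40.9 and 14.5 CPM in young and 52.8, 19.3 and 93.0 CPM in aged ECs. The groups overlapped for both chains. The log2 fold changes were -0.29 ± 0.20 (SE) for Lamb2 and 0.77 ± 0.59 (SE) for Lamb1, the latter 0.17 without the 136-week sample. Lamb3, a chain of epithelial laminin, had 4, 3 and 14 counts in young and 13, 9 and 92 counts in aged samples. Its fitted log2 fold change of 2.59 ± 1.10 (SE, edgeR adjusted p = 0.393) rested on few reads, and the groups overlapped. It was 3.36 without young replicate 3, and without the 136-week sample Lamb3 did not reach the level needed for testing.

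Of the gamma chains, the scarce Lamc3 separated by age and the abundant Lamc1 did not. Lamc1, the gamma chain of most laminins, had 165, 180 and 141 CPM in young and 153, 153 and 248 CPM in aged ECs, which overlapped (log2 fold change 0.19 ± 0.23 SE). Lamc3, which had a mean under 1 FPKM, was higher in every aged sample than in every young sample. Lamc3 (chr2:31742811-31802059) had 4.13, 3.61 and 1.42 CPM in young and 6.53, 8.95 and 9.42 CPM in aged ECs, a 2.72-fold difference (log2 1.44 ± 0.42 SE, 95% interval 0.45 to 2.44, edgeR adjusted p = 0.267). The aged samples of Lamc3 lay close together. Of the exon bases of Lamc3, 6.27% are shared with a gene on the opposite strand.

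The genes listed here for the capillary basement membrane (10 genes, Col4a1, Col4a2, Lama4, Lama5, Lamb1, Lamb2, Lamc1, Nid1, Nid2 and Hspg2) summed to 651, 635 and 610 FPKM in young replicates 1 to 3. They summed to 439, 493 and 660 FPKM in the 127-, 131- and 136-week samples. The 127- and 131-week samples were below every young sample, and the 136-week sample was above every one.

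Sparc and Sparcl1, related secreted proteins of the matrix, stood on opposite sides. Sparc (chr11:55208002-55233582) had 1992, 1909 and 1445 CPM in young and 905, 1259 and 1323 CPM in aged ECs. Every aged sample was below every young one, by 1.53-fold in the fit (log2 fold change -0.62 ± 0.22 SE, 95% interval -1.14 to -0.09, edgeR adjusted p = 0.344). Sparcl1 (chr5:104508130-104543107) had 60.1, 54.3 and 42.1 CPM in young and 79.3, 61.3 and 166 CPM in aged ECs. Every aged sample was above every young one, by 1.96-fold (log2 0.97 ± 0.37 SE, 95% interval 0.11 to 1.83, edgeR adjusted p = 0.358). The 131-week sample exceeded young replicate 1 only narrowly, and without the 136-week sample the log2 fold change was 0.43. Of the exon bases of Sparcl1, 6.45% are shared with an antisense gene. The FPKM ratio of Sparc to Sparcl1 was 39.6, 42.0 and 41.3 in young and 13.6, 24.6 and 9.54 in aged ECs. Because every aged sample was lower for Sparc and higher for Sparcl1, this ratio could not overlap between the groups. Its two-sided exact permutation test (p = 0.1, adjusted over the 9 ratios p = 0.72) therefore adds no further support.

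Fn1, fibronectin, which cells assemble into fibrils through integrins, had 38.6, 48.2 and 17.0 CPM in young and 84.0, 47.4 and 213 CPM in aged ECs. The 131-week sample lay just under young replicate 2, so the groups overlapped, while the other 2 aged samples were above all young samples. The difference was 3.32-fold (log2 1.73 ± 0.59 SE, edgeR adjusted p = 0.332), and on the log2 scale it was 0.93 without the 136-week sample. Lox, the enzyme that starts crosslinking of collagen and elastin, had 11.2, 10.5 and 2.71 CPM in young and 14.1, 13.1 and 29.1 CPM in aged ECs. Its groups did not overlap, with a log2 fold change of 1.21 ± 0.56 (SE, edgeR adjusted p = 0.429).

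**Figure D3:**
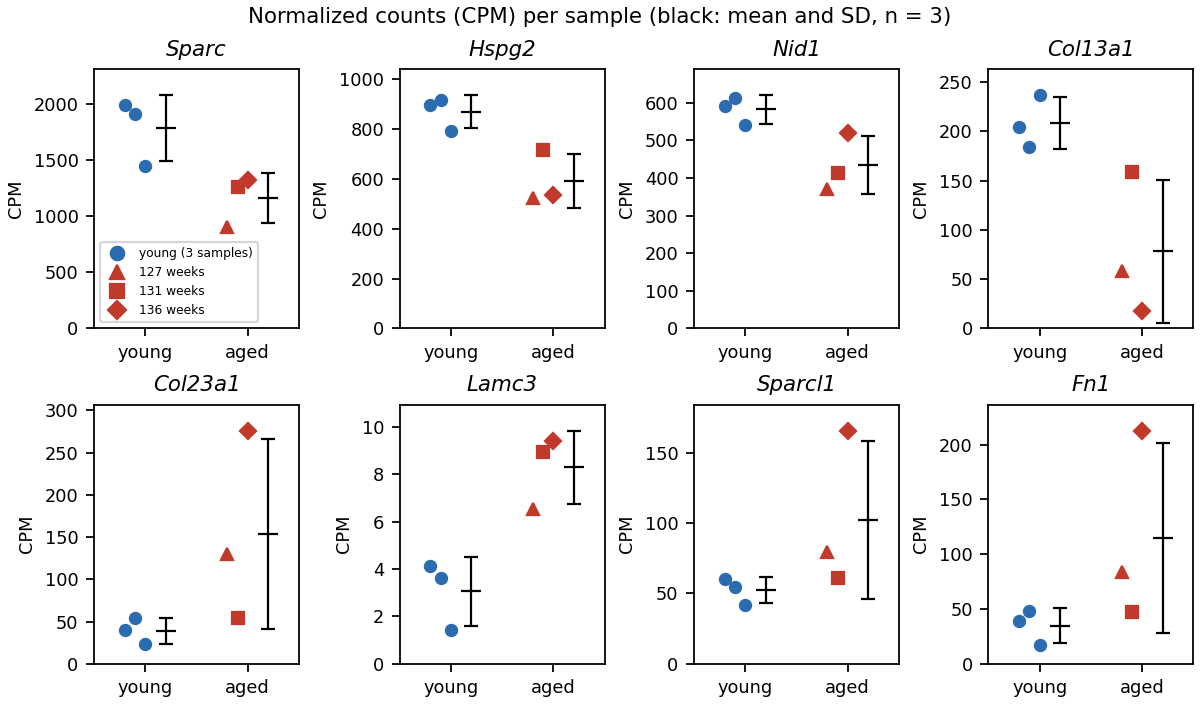
CPM in each sample for 8 members, with blue circles for young, red symbols for the 3 aged samples, and black bars for the mean and SD of each group (n = 3). Sparc, Hspg2, Nid1 and Col13a1 are lower in all aged samples and Col23a1, Lamc3 and Sparcl1 higher, while for Fn1 the 131-week sample (47.4 CPM) overlaps with young replicate 2 (48.2 CPM).

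The transmembrane collagens, which span the plasma membrane and can be shed from it, held a member with all aged samples above and 2 with all aged samples below the young. Col23a1 (chr11:51103422-51397420) had 39.5, 53.7 and 22.8 CPM in young and 130, 54.5 and 276 CPM in aged ECs. The 131-week sample was barely above young replicate 2 and the 136-week sample was the highest. The 3.97-fold difference (log2 1.99 ± 0.58 SE, 95% interval 0.63 to 3.35) had the smallest p among the members (edgeR adjusted p = 0.267), and without the 136-week sample the log2 fold change was 1.26. Col13a1 (chr10:61300984-61441856), a collagen of cell adhesion sites, had 204, 184 and 237 CPM in young and 58.5, 159 and 17.9 CPM in aged ECs. All aged samples were lower, but they ranged widely, with the 131-week sample near the young group and the 136-week sample far below it. The log2 fold change was -1.41 ± 0.66 (SE, 95% interval -2.96 to 0.14, edgeR adjusted p = 0.438). It was -2.45 without the 131-week sample and -0.94 without the 136-week sample, and neither passed the adjusted threshold. Col17a1 had 2.75 to 3.34 CPM in young and 0.997 to 2.37 CPM in aged ECs, and Col25a1 stayed below 0.8 CPM.

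Summed, the markers of sinusoidal ECs had the same order among the aged samples as Col13a1, highest at 131 and lowest at 136 weeks, and 7 of the 10 markers had it singly. This order was not particular to Col13a1. Lamb2, Lama5 and Lama3, whose groups overlapped, were among the members that had it too. The order was compared after the values had been seen, and its share over all genes was not counted. The summed CPM of 10 sinusoidal EC markers was 18951, 19840 and 19809 in young and 7170, 12885 and 6597 in aged ECs. Stab1 had a mean of 2748 CPM in young and 1660 CPM in aged ECs, and Stab2 3041 and 935 CPM, both with the 127- rather than the 136-week sample lowest, and Lyve1 was highest at 136 weeks. None of the 10 was at 0, and 7 of the 10 had all aged samples below all young samples. The summed CPM of 12 markers of continuous or large-vessel ECs was 8198, 8464 and 5567 in young and 8276, 8140 and 9816 in aged ECs. Of these, Cd34 had means of 112 and 187 CPM, and Plvap 2299 and 3079 CPM. The sinusoidal sum was lower in every aged sample. Nid1, Hspg2, Sparc, Col13a1 and Col17a1 are the members picked out for being so too, and their shared direction with the sum follows from that choice. Among the aged samples Hspg2, Col13a1 and Col17a1 were highest at 131 weeks, like the sum. Nid1 and Sparc were highest at 136 weeks, where the sum was lowest. The part of the sinusoidal markers in these values was not tested.

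The fibrillar collagens form the fibers of interstitial matrix, which in liver is made mainly by stellate cells and fibroblasts. Col3a1 had 85.0, 72.6 and 20.4 CPM in young and 12.0, 13.6 and 44.8 CPM in aged ECs. Col1a1 had 31.7, 19.1 and 3.38 CPM in young and 1.51, 3.58 and 17.5 CPM in aged ECs. Col1a2 followed the same pattern, with 26.2, 19.5 and 6.03 CPM in young and 3.16, 5.60 and 18.0 CPM in aged ECs. In all 3 genes the high values were in young replicates 1 and 2 and at 136 weeks, the low values were in young replicate 3 and the other aged samples, and the groups overlapped. The log2 fold changes were -1.34 ± 0.66, -1.26 ± 1.00 and -0.95 ± 0.73 (SE) for Col3a1, Col1a1 and Col1a2. Col5a2, a chain of the collagen V that regulates fiber width, had 50.6 to 79.1 CPM in young and 36.2 to 65.8 CPM in aged ECs. Col5a1, Col5a3 and Col27a1 overlapped between the groups at 0.812 to 10.5 CPM.

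Col11a2, a minor fibrillar chain, had all aged samples above all young samples at low counts (18, 8 and 5 counts in young, 94, 20 and 40 counts in aged samples). In CPM these were 0.670, 0.361 and 0.158 in young and 3.23, 0.778 and 1.63 in aged ECs. The fitted log2 fold change was 2.24 ± 0.77 (SE, edgeR adjusted p = 0.331), with the 127-week value highest and the 131-week value close to young replicate 1. It was 1.60 without the 127-week sample and 2.86 without young replicate 1.

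Collagen VI forms beaded microfilaments around cells, with Col6a3 as its long chain. Col6a3 had 78.4, 110 and 74.5 CPM in young and 138, 120.0 and 77.9 CPM in aged ECs. Col6a1 and Col6a2, the short chains, had another order of samples. Col6a1 had 16.6, 13.6 and 4.17 CPM in young and 2.89, 5.60 and 12.4 CPM in aged ECs, the order seen for the fibrillar chains, and Col6a2 ranged from 1.55 to 9.03 CPM with the same samples high. The ratio of Col6a1 to Col6a2 in FPKM stayed between 1.39 and 1.74 in the 6 samples. Col6a5 and Col6a6 stayed below 0.9 CPM. Col6a4 was at 0 counts in 5 samples and at 19 counts in the 136-week sample, so no fold change is given for it, and placing it at the bound that 3 counts in each young sample allow left the median of the members at 0.14.

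Other collagens were measured at lower or uneven levels. Of the fibril-associated collagens, which decorate fibers, Col14a1 had 78.2 to 95.9 CPM in young and 92.3 to 119.5 CPM in aged ECs, and only the 127-week sample fell within the young range (log2 fold change 0.35 ± 0.16 SE, edgeR adjusted p = 0.422). Col16a1 had 1.23 to 2.17 CPM in young and 2.44 to 5.52 CPM in aged ECs. Col12a1 had 0.410 to 1.45 CPM in young and 0.585 to 7.55 CPM in aged ECs, with the 136-week sample highest. Col9a3 and Col20a1 stayed below 1.2 CPM. Of the short-chain collagens, Col8a1, a product of vascular cells, had 79.7, 52.1 and 18.8 CPM in young and 24.5, 69.1 and 63.0 CPM in aged ECs, and overlapped. Col8a2 stayed below 1.6 CPM. Col28a1 had 0.135 to 0.252 CPM in young and 0.344 to 0.528 CPM in aged ECs, at 3 to 13 counts a sample, and Col7a1 had at most 17 counts.

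Markers of other cells that could be in the sort are given next. The 14 stellate or mural markers summed to 313, 313 and 182 CPM in young and 441, 249 and 758 CPM in aged ECs. Des had means of 7.34 and 7.34 CPM, and Rgs5 6.77 and 8.98 CPM. The 10 fibroblast or mesothelial markers summed to 446, 440.0 and 224 CPM in young and 637, 425 and 624 CPM in aged ECs, with Pdgfra at means of 2.00 and 3.00 CPM and Dpt at 1.96 and 2.32 CPM. Of these 10 markers, 5 had a fitted difference above 0 and 5 below. Young replicate 3 had the lowest sum of both lists. The sum of Col1a1, Col1a2, Col3a1, Col6a1 and Col6a2 was 168, 134 and 36.4 CPM in young and 21.1, 31.6 and 101 CPM in aged ECs. This collagen sum was lowest in the 127-week sample, where both marker sums were above those of every young sample. Each marker sum was largely 1 gene there, Reln with 351 of 441 CPM and Gpm6a with 553 of 637 CPM. Without Reln, a choice made after seeing these values, the other 13 stellate or mural markers summed to 158, 131 and 112 CPM in young and 89.5, 140 and 262 CPM in aged ECs, lowest in the 127-week sample like the collagens. Of these 13 markers, 8 had their lowest value of the 6 samples there, against 2 of the 9 fibroblast or mesothelial markers other than Gpm6a. The share of all genes lowest in the 127-week sample was not counted. Without Gpm6a the other 9 fibroblast or mesothelial markers summed to 178, 114 and 31.0 CPM in young and 83.6, 70.7 and 150.5 CPM in aged ECs, with the 127-week sample inside the young range. Both of these sums, like the collagen sum, were lowest among the young samples in replicate 3 and highest among the aged samples at 136 weeks. None of these markers was at 0 in a whole group, and their part in the collagen values was not tested.

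The 12 leukocyte markers summed to 56.6, 30.6 and 51.4 CPM in young and 160, 36.2 and 534 CPM in aged ECs, although the gate was CD45-negative. Ptprc, which encodes CD45, had means of 1.48 and 11.5 CPM, and Laptm5 7.22 and 29.8 CPM. All 12 had a fitted difference above 0. Col23a1, Fn1, Sparcl1, Lox and Col18a1 had their highest value, like this sum, in the 136-week sample. In all, 24 of the 54 members tested did so, Col4a1, Col4a2 and Lamc1 among them, as did 25.7% of all genes. The part of the leukocyte markers in these values was not tested. The 7 Kupffer cell markers in the table summed to 25.4 to 41.7 CPM in young and 7.24 to 92.0 CPM in aged ECs, with Clec4f at means of 13.2 and 22.7 CPM and Vsig4 at 4.54 and 13.0 CPM. The 15 hepatocyte markers summed to 156 to 234 CPM in young and 105 to 126 CPM in aged ECs, with Alb at means of 58.1 and 41.5 CPM and Apoa1 at 21.9 and 11.6 CPM. The 6 cholangiocyte markers summed to 89.5 to 109 CPM in young and 193 to 240 CPM in aged ECs, with Krt19 at means of 6.86 and 11.9 CPM and Krt7 at 1.85 and 3.08 CPM. Most of this sum was 1 gene, Spp1, with 77.4 to 96.2 CPM in young and 161.5 to 206 CPM in aged ECs. Of the 6 markers, 2 (Spp1 and Sox9) had all aged samples above all young samples, and the others overlapped between the groups. In the hepatocyte list 1 gene, Ass1, was at 0 in every young sample.

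**Figure D4:**
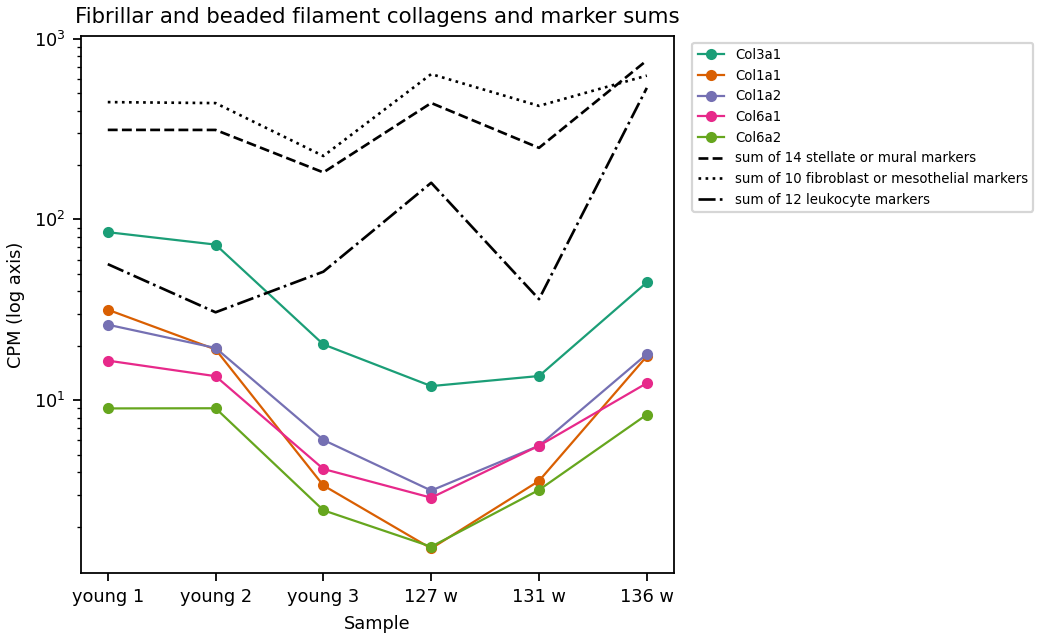
CPM on a log axis of Col3a1, Col1a1, Col1a2, Col6a1 and Col6a2 (colored points) and the summed CPM of stellate or mural, fibroblast or mesothelial and leukocyte markers (black lines) in each sample; lines only join the values of a gene or list. The 5 collagens are high in young replicates 1 and 2 and at 136 weeks and lowest in the 127-week sample, where Reln makes up 351 of the 441 CPM of the stellate or mural sum.

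Within the clusters of libraries set by Lars2 and Rn45s, the direction of the pooled fit held in both clusters for 41 of the 54 members. For the 13 members whose groups did not overlap it had to hold, so the direction is no check of these. It held for all 10 members with an unadjusted p below 0.05, but only Fn1 and Lamb3 among them had overlapping groups and could have failed. For Fn1 the log2 difference was 1.21 in the cluster of 4 libraries and 2.27 in the pair. Within the cluster of 4 libraries the log2 difference was -0.55 for Hspg2, -0.38 for Nid1, -0.60 for Sparc, 1.41 for Col23a1, 1.15 for Lamc3 and 0.82 for Sparcl1. Within the pair of libraries with few such reads, 1 young and 1 aged and so without replicates, it was -0.60, -0.55, -0.68, 2.48, 1.87 and 0.91, in the same order. For Lamb3 the difference in the pair was 0.01, against 1.56 in the cluster of 4.

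The enzymes that modify, secrete and crosslink collagens were compared in the same fit. Of 34 symbols listed, of which 5 are older names absent from the table, 29 were tested. No gene passed the adjusted threshold, while 2 were higher and 3 lower in the aged group at an unadjusted p below 0.05 (background 8.32% higher and 4.32% lower). The median log2 difference of the list was -0.19. The 3 with the smallest p were Tll1, a protease that trims procollagens, at means of 9.57 CPM in young and 46.2 CPM in aged ECs, Pxdn, the peroxidase that crosslinks collagen IV, at 671 and 394 CPM, and P3h3, a prolyl hydroxylase family member, at 43.9 and 68.9 CPM. Their log2 fold changes were 2.27 ± 0.56, -0.77 ± 0.20 and 0.65 ± 0.17 (SE), with edgeR adjusted p = 0.237, 0.249 and 0.250. In all 3, chosen for their small p, the aged and young samples did not overlap. Of the 29 genes tested, 4 had all aged samples above and 6 had all aged samples below all young samples (background 9.62% and 8.33%).

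Of 42 other matrix glycoproteins and proteoglycans 41 were tested, with a median of -0.0049 on the log2 scale and 10 higher and 3 lower at an unadjusted p below 0.05 (the same background). Igfbp7, a secreted protein abundant in blood vessels, had means of 3242 CPM in young and 1797 CPM in aged ECs (log2 fold change -0.85 ± 0.20 SE, edgeR adjusted p = 0.235). Smoc1, a matricellular protein of the Sparc family, had 4.62 and 15.1 CPM, and Mgp, an inhibitor of calcification, had 29.0 and 78.5 CPM. The last 2 were higher in every aged sample, with log2 fold changes of 1.71 ± 0.44 and 1.44 ± 0.38 (SE, edgeR adjusted p = 0.250 for both). Of the 41 genes tested, 6 had all aged samples above and 3 had all aged samples below all young samples (background 9.62% and 8.33%).

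Of 24 receptors for matrix, all tested, 5 were higher and 2 lower at an unadjusted p below 0.05 (the same background), with a median of 0.17. Itga9, an integrin alpha chain with fibronectin and tenascin among its ligands, had means of 485 CPM in young and 261 CPM in aged ECs (log2 fold change -0.89 ± 0.19 SE, edgeR adjusted p = 0.209). Itga3, the alpha chain of a laminin-binding integrin, had 49.4 and 75.8 CPM (0.62 ± 0.16 SE), and Ddr1, a collagen receptor with tyrosine kinase activity, had 4.58 and 10.6 CPM (1.21 ± 0.34 SE). For all 3, chosen for their small p, the groups did not overlap. Of the 24 genes tested, 4 had all aged samples above and 2 had all aged samples below all young samples (background 9.62% and 8.33%).

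**Figure D5:**
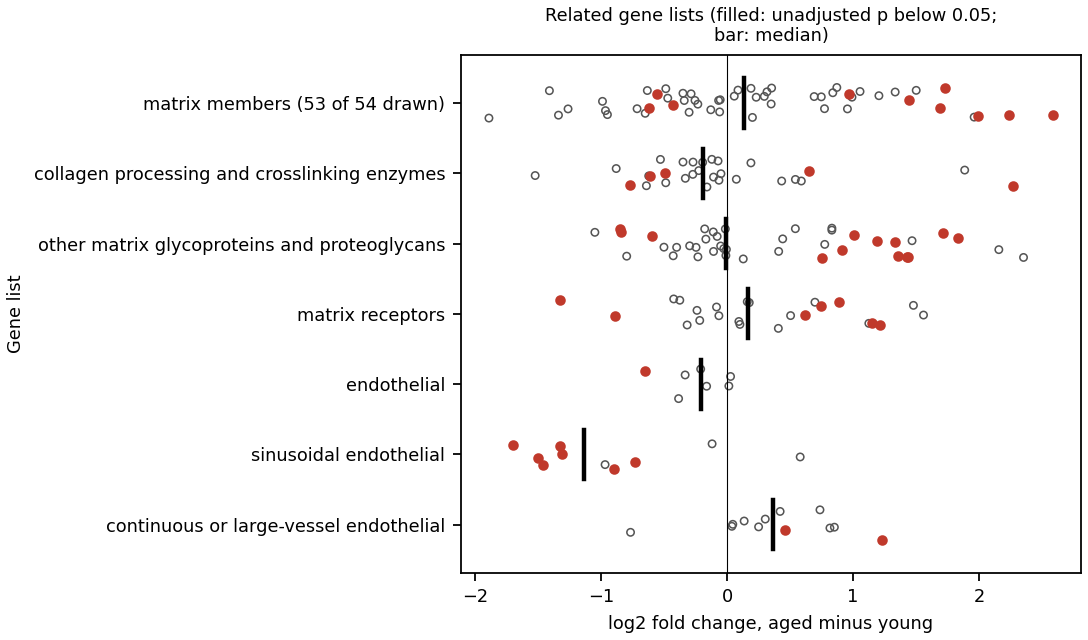
Log2 fold change, aged minus young, of the tested genes in the matrix members and in the lists of related and of endothelial marker genes. Filled points mark an unadjusted p below 0.05, bars mark the median, and the vertical scatter within a row has no meaning. Col6a4 is not drawn but is included in the median of the members. The members are spread on both sides of 0 with a median of 0.14, while the 10 sinusoidal markers have a median of -1.14 and the 12 continuous or large-vessel markers one of 0.36.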

How the data were processed

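Sorted liver ECs in 3 samples from young and 3 samples from aged mice were analysed. The number of mice behind a sample is not given. Per the labels and methods, the authors used CASAVA 1.8.2, aligned 75-base reads to mm9 with TopHat2 2.1.0, and deposited whole-number counts for 24421 gene symbols, not normalized. FPKM values were made by the authors with Cuffnorm 2.2.1 and deposited beside the counts. The counting program, its annotation and its use of strand are not given in the sources used here, so reads in bases shared with an antisense gene are uncertain.

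Genes with at least 0.5 CPM in at least 1 sample (14612) were TMM-normalized and tested with edgeR 4.0.16 (R 4.3.3), by its quasi-likelihood test with Benjamini-Hochberg adjustment over all of them, at an adjusted p of 0.05 together with a log2 difference of 1. The SE is the log2 difference over the root of the F statistic. The methods call the 3 samples of each group independent, and p-values measure the spread between them. No pair of samples of 1 age agreed within sampling noise (smallest chi-square per degree of freedom 20.2). Single values had two-sided exact permutation tests. Scripts were tested on simulated data.

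Described in full were the 10 members with the highest mean FPKM, the 10 with the smallest p, the collagen IV pairs and the capillary basement membrane genes. The values of 1 member that this rule covers are not reported here, and it stays in the counts and medians. Each related list is represented by the 3 genes of smallest p and each marker list by its first 2. Members and lists were chosen with earlier results of these data known. Alternatives were other normalizations and filters, DESeq2 1.42.0, limma-voom and limma on FPKM (limma 3.58.1), removal of Lars2 and Rn45s, a term for library cluster (these symbols under or over 3% of counts) and leaving out each sample. Positions are from GENCODE M1 on mm9.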

Additional observations from a re-analysis of the deposited data

How the results depend on the processing

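With 3 samples a group and an aged group whose samples differ widely, only large differences can be resolved, and members under about 1 FPKM rest on few counts. No paired analysis applied, because the young and aged samples came from separate mice and no label pairs them. Over 16 alternatives, the log2 fold changes of the 22 members covered by the naming rule kept their direction and their side of the threshold in 335 fits, passed the threshold in 4 and changed sign in 10. DESeq2 called 4 members higher (among them Lamc3, Col23a1 and Fn1), where every other alternative called none. The number of members lower at an unadjusted p below 0.05 (3 with edgeR) was 6 with DESeq2, 9 with limma-voom, and 5 with each of the 3 limma fits on FPKM. When 1 sample was left out it ranged from 0 (without young replicate 1 or 2) to 8 (without the 136-week sample), and it was 1 without the 127-week and 5 without the 131-week sample. Members with all aged below all young samples numbered 5 to 14, with 14 without young replicate 3 and 12 without the 136-week sample, where fewer samples have to be separated. The sign of the log2 fold change turned for Nid2 with limma-voom (-0.080) and in leave-one-out fits for Nid2 (-0.25 to 0.58), Col4a2 (-0.43 to 0.073), Lama5 (-0.28 to 0.033), Lamc1 (-0.081 to 0.31) and Col15a1 (-0.066 to 0.95). Without the 136-week sample it was negative for Nid2, Lamc1 and Col15a1 and the median over the members was -0.081, and without young replicate 1 that median was 0.32. The cause of these differences was not tested. Lamb3 gave no value without the 136-week sample, and with at least 1 CPM in at least 3 samples 20 of the 22 members were tested.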
